A study of Arabidopsis thaliana with 28 samples.

Results

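The earliest time point of a low-oxygen study in Arabidopsis thaliana roots is described here: 30 min at 1% oxygen, compared with 30 min in air (21% oxygen). The arrays were chosen by their titles, and 5 of the 28 arrays of the study belong to this comparison, 2 at 1% oxygen (letters D and F) and 3 in air (letters C, F and G). All seedlings were of the ecotype given as col2. They grew on vertical agar plates with half-strength Murashige and Skoog medium and 1% sucrose at 22 °C, in 12 h of light per day. The treatment label states that they were moved at 10 days after germination, while another label gives seedlings of 2 weeks. They were placed in continuous darkness under a gas stream with the stated oxygen level, 350 ppm CO2 and nitrogen, so the roots in air had also been in darkness for 30 min. Roots lay on the agar surface and were frozen in liquid nitrogen at harvest. From each sample, 10 µg of total RNA was biotin-labelled and put on 1 array. No label says whether the replicates came from separate cultures. The p-values measure the spread between samples within the groups of all 28 arrays, which may be technical. Each sample was a whole root system, and fewer cells of a type and less RNA per cell cannot be told apart in it.

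Plant cells that run short of oxygen lose mitochondrial ATP production and turn to fermentation, in which pyruvate decarboxylase and alcohol dehydrogenase, or lactate dehydrogenase, regenerate NAD+. In Arabidopsis, transcription factors of the ERF group VII family are degraded through the N-degron pathway while oxygen is present, and persist when it is scarce. They then switch on a core set of genes that respond to low oxygen in roots and shoots, among them fermentation enzymes, transcription factors and many proteins without a known function. HRA1 (AT3G10040), a trihelix transcription factor of this core set, dampens the response it belongs to.

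Each value is the signal of a probe set, a group of short probes for 1 transcript, in arbitrary units. The authors had scaled every array to a trimmed mean of 100, and the median signal of the 5 arrays lay between 38.5 and 43.2. No 2 arrays of the study held the same values, and their correlations over all probe sets were between 0.898 and 0.993. Differences are given on the log2(signal + 6) scale, which makes the fold of a dim probe set smaller than its plain ratio of signals. The annotation named 1 gene for 13513 of the 22746 probe sets tested and none or several for 9233, and a probe set without its own gene is given by its ID. Whole roots could be checked against a single named marker of 16, EXPA7, an expansin of root hair cells, which had signals of 96.4 and 153 at 1% oxygen and 104, 135 and 98.6 in air. Transcripts of the plastid genome set 1 array apart: 60 of 69 named plastid genes were highest on air array C among the 5 arrays. Their summed signal was 20640 on that array, 6111 and 6213 on air arrays F and G, and 13080 and 8189 on the 1% arrays D and F. The part of this difference in the results below was not tested.

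After 30 min at 1% oxygen, 11 probe sets were higher than in air and none was lower (limma, Benjamini-Hochberg adjusted p under 0.05 over all 22746 probe sets). The 11 were 0.0484% of all probe sets tested, and the lower direction held 0%. They comprised 7 named genes and 4 probe sets without a gene name, with rises between 4.04-fold and 39.9-fold. All 7 named genes belonged to a list of 54 genes known to respond to low oxygen, of which 27 had a probe set of their own. The list was assembled with earlier results of these arrays known, so this membership is not independent evidence. Without adjustment, 393 probe sets had p under 0.05, 230 of them higher and 163 lower.

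AT4G10270, a member of the wound-responsive protein family, had signals of 1039 and 650 on the 1% arrays D and F, against 17.8, 33.9 and 3.42 on the air arrays C, F and G. Both 1% arrays were far above every air array, and the air array G was below the pseudocount. The rise was 5.32 ± 0.74 on the log2 scale (SE), or 39.9-fold (limma adjusted p = 0.00269).

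HRA1 (AT3G10040) had signals of 1184 and 485 at 1% oxygen, against 14.5, 15.2 and 18.3 in air. The air arrays lay close together, and the 1% arrays differed from each other more than for most of the 11. The rise was 5.12 ± 0.70 (SE), or 34.9-fold (limma adjusted p = 0.00269).

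AT4G24110 had signals of 453 and 219 at 1% oxygen and of 19.5, 23.4 and 3.41 in air. Its rise was 16.7-fold (log2 4.06 ± 0.62 SE, limma adjusted p = 0.00571). AT4G33560, another member of the wound-responsive family, had signals of 192 and 159 at 1% oxygen and of 2.21, 17.3 and 5.28 in air. It rose 14.01-fold (log2 3.81 ± 0.59 SE, limma adjusted p = 0.00607). In both genes the air signals were low and spread widely, so their folds rest in part on the pseudocount.

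AT3G27220, which encodes a kelch-repeat protein, had close signals within each group. They were 289 and 276 at 1% oxygen and 22.7, 25.6 and 20.6 in air. The rise was 9.99-fold (log2 3.32 ± 0.36 SE, limma adjusted p = 0.000179), and it passed the threshold with any 1 of the 5 arrays left out.

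AT3G23170 had signals of 126 and 139 at 1% oxygen and of 14.3, 27.4 and 13.7 in air, a rise of 5.83-fold (log2 2.54 ± 0.36 SE, limma adjusted p = 0.00292). AT5G44730, a haloacid dehalogenase-like hydrolase, had signals of 337 and 283 at 1% oxygen. Its air signals were 79.5, 79.4 and 58.8, and it rose 4.04-fold (log2 2.01 ± 0.30 SE, limma adjusted p = 0.00419). For these genes the groups were also well separated, with every 1% array above every air array.

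Among the probe sets without a gene name, 258487_at had signals of 1413 and 1248 at 1% oxygen and 62.7, 79.2 and 80.5 in air, a log2 rise of 4.06 (limma adjusted p = 0.00434). For 247431_at the signals were 349 and 255 against 18.3, 21.5 and 22.6, a log2 rise of 3.51 with the smallest adjusted p of the 11 (limma, 1.44e-05). It too passed with any 1 array left out.

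The probe set 250152_at had signals of 457 and 491 at 1% oxygen and of 49.4, 84.6 and 38.0 in air, a log2 rise of 2.99 (limma adjusted p = 0.00269). The last, 264953_at, had 867 and 369 against 112, 149 and 98.9, a log2 rise of 2.21 (limma adjusted p = 0.0389). Its 1% arrays differed from each other by more than 2-fold, and its adjusted p was the nearest to the threshold.

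**Figure D1:**
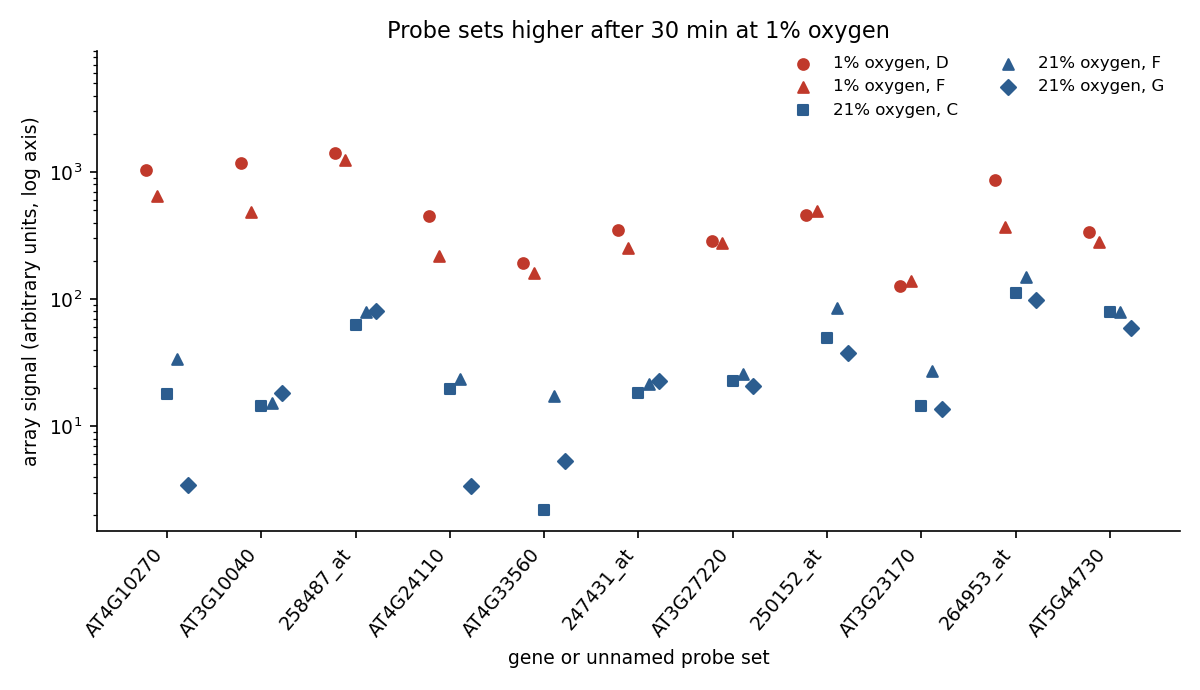
Signals of the 11 probe sets that rose, on a log axis, for each of the 5 arrays: red for 1% oxygen (D and F), blue for air (C, F and G), 1 column of points per gene or probe set ID. Both red points lie above all 3 blue points in every column, and the air array G falls to 3.42 for AT4G10270.

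Arrays with the same letter tended to share a deviation at this duration. All 6 pairs of arrays with the same letter at 30 min correlated above 0.1 after group means were removed (0.460 to 0.727). Of 24 pairs with different letters 7 also did, up to 0.4845 for 1% D with air C. Deviations in a group of 2 arrays mirror each other, so the pairs are not separate checks. The letter was also fitted as a block. With the letter as a random block 14 probe sets passed, all 11 among them. As a fixed block, 2 of the 11 passed and no others, AT3G23170 (limma adjusted p = 0.00757) and 247431_at (limma adjusted p = 0.00712). The log2 rises of all 11 with the fixed block were between 1.70 and 4.97. AT3G27220 then had an adjusted p of 0.0520, HRA1, 250152_at and AT5G44730 about 0.064, AT4G10270 0.171, AT4G24110 0.259, 258487_at 0.384, 264953_at 0.390 and AT4G33560 0.614. With a separate block for each letter within each duration none passed, and the smallest adjusted p was 0.0623.

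The number of calls also rested on single arrays. Without the 1% array D, 2 of the 11 passed, and without the 1% array F, 6 of the 11. Leaving out the air array C, F or G kept 9, 10 or 8 of the 11. Without air array C the adjusted p was 0.198 for 264953_at and 0.0628 for AT4G33560 (limma). The probe set 264953_at also missed the threshold without air array F or G, and AT4G24110 and AT4G33560 missed it without G, each with an adjusted p of 0.0508. A group left with 1 array was assumed to vary like the other groups.

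Letter F is the only one with an array in both groups, so it gives a comparison within 1 letter, and the remaining arrays (1% D against the mean of air C and G) give another that shares no array with it. All 11 probe sets were more than 2-fold higher in both. The 11 were chosen by their rise on these same arrays, which favours a rise in both comparisons. For the 11, the comparisons are therefore not a separate check and only describe how the rise was spread over the arrays. The F pair gave 16.5-fold for AT4G10270, 23.2-fold for HRA1, 8.92-fold for AT3G27220 and 2.43-fold for 264953_at. Array D against C and G gave 69.8-fold, 53.3-fold, 10.7-fold and 7.86-fold for the same probe sets. The difference was larger with array D for each of the 11.

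Across all probe sets the F pair held 116 that were over 2-fold higher (0.51%) and 144 that were over 2-fold lower (0.633%). The other comparison held 225 and 330. Those over 2-fold higher in both numbered 36 (0.158% of all probe sets, 31.0% of the F list and 16.0% of the D list), and those over 2-fold lower in both numbered 3 (0.0132%, with 2.08% and 0.909% of the lists). A further 9 probe sets were over 2-fold in opposite directions. Over all probe sets the correlation of the 2 differences was 0.150 (Pearson, a description across probe sets, which are not replicates). It was -0.0101 in the dimmest 5686 probe sets and 0.310 in the brightest 5687.

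**Figure D2:**
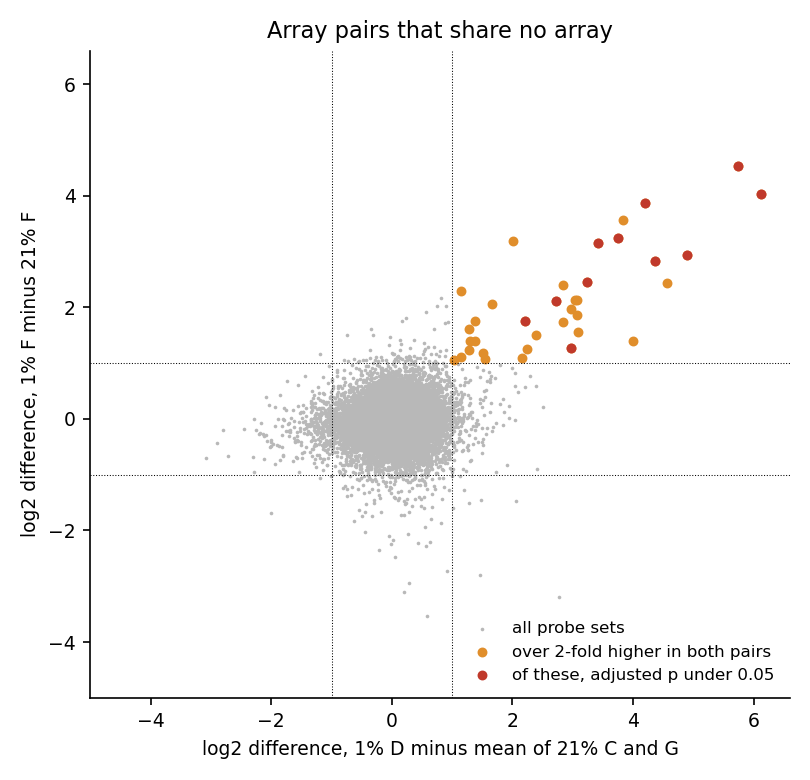
Log2 difference of array 1% F from air F against that of array 1% D from the mean of air C and G, 1 point per probe set, with dotted lines at 2-fold. The 36 orange and red points are over 2-fold higher in both, and the 11 red ones passed the test.

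The 36 comprised 22 named genes and 14 unnamed probe sets, and 12 of the named genes were in the low-oxygen list. Beyond the genes that passed, they held AT5G10040, AT1G33055, AT5G66985, AT4G27450 and CML38 from the list. Outside the list they held ARL, related to the organ growth gene ARGOS, with mean signals of 392.1 at 1% oxygen and 41.1 in air (log2 2.67, limma adjusted p above 0.9). AT5G26200 had a log2 difference of 2.12, AT2G25510 of 1.90, AT4G19980 of 1.43, AT5G10210 of 1.18 and AT1G04770 of 1.06, and none of them passed. The remaining 4 were plastid genes, rpl16, psaB, rps4 and cemA, in a set of 69 of which 38 had a difference at or below 0. In the F pair 14 of the 69 were over 2-fold higher, beside 0.51% of all probe sets. The 1% array D was below air array C for psaB (1691 against 2048) and rps4 (262 against 475). It was above air array C for rpl16 and cemA.

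Other genes had non-overlapping arrays without passing. Both 1% arrays were above all 3 air arrays for 1833 probe sets (8.06%) and below all 3 for 1617 (7.11%). AT5G10040 had signals of 164 and 187 at 1% oxygen and of 6.08, 10.3 and 5.73 in air, a log2 difference of 3.78 ± 0.77 (SE) that did not pass (limma adjusted p = 0.135). It passed when the fit held only the arrays of this duration (adjusted p = 0.00541) or only the 5 arrays compared (adjusted p = 0.0169). It did not pass with the letter as a fixed block (limma adjusted p = 0.989) or with a block within each duration. Leaving out any 1 of the air arrays did not make it pass either.

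AT5G66985 had signals of 1250 and 846 against 320, 296 and 171, a 3.99-fold difference (limma adjusted p = 0.149). It passed with the letter as a random block (adjusted p = 0.00819) but not as a fixed one (adjusted p = 0.126) or within each duration (adjusted p = 0.525). AT1G33055 had 1026 and 964 against 274, 178 and 68.9, a 6.38-fold difference (limma adjusted p = 0.381). Both genes were bright in air as well, and in both the air array G was the lowest.

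CML38, a calmodulin-like protein of the calcium signalling family, had signals of 207 and 114 at 1% oxygen and of 13.4, 34.8 and 26.4 in air. The difference was 5.41-fold and did not pass (limma adjusted p = 0.719). AT4G14980 had signals of 69.3 and 104 at 1% oxygen and of 18.9, 52.6 and 8.30 in air (log2 1.73). Of the 12 genes with the smallest p-values among the separated genes that did not pass, 6 had no signal above 12.2 on any of the 5 arrays (AT5G42290, AT3G29600, AT1G31550, AT1G41825, AT5G54720 and AT4G12380).

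In the lower direction nothing passed, and the 12 separated genes with the smallest p-values are described here. AT2G28440 had signals of 0.780 and 0.588 at 1% oxygen and of 8.71, 7.47 and 6.73 in air (log2 -1.03, limma adjusted p = 0.577). AT3G26000 had 92.3 and 89.0 against 138, 127 and 155 (log2 -0.59), and HHP2, a heptahelical membrane protein, had 166 and 155 against 223, 224 and 241 (log2 -0.50). The other 9 of the 12 separated genes with the smallest p-values in this direction had log2 differences between -1.12 and -0.48. Among all probe sets, 53 had a log2 difference below -1 and 70 had one above 1. No probe set reached a log2 difference of -2, whereas 22 exceeded 2, and 11 of these 22 were the ones that passed.

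With all probe sets in 4 equal bins by their mean level in air, 1 of the 11 lay in the dimmest bin, 6 in the next, 4 in the second brightest and 0 in the brightest. The median log2 difference of all probe sets was 0.0069, with 90% of them between -0.44 and 0.43 (5th and 95th percentile).

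**Figure D3:**
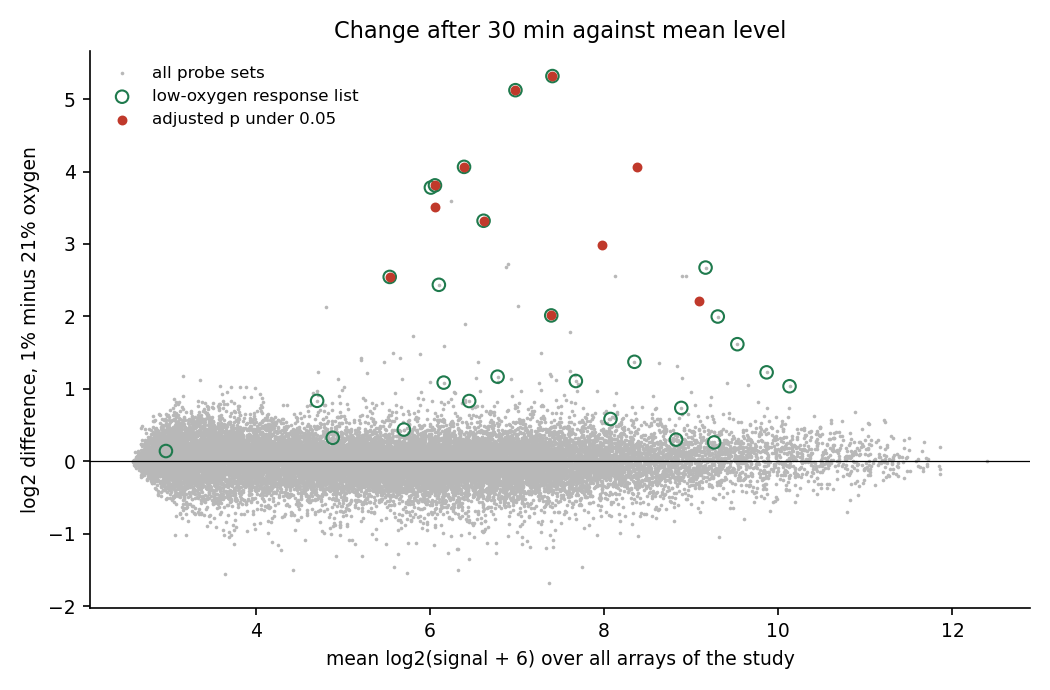
Log2 difference between 1% oxygen and air against the mean log2(signal + 6) over all 28 arrays, 1 grey point per probe set. Red points passed the test, green rings mark the named members of the low-oxygen list, and the red points lie between 2.01 and 5.32 on the vertical axis, with none below 0.

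By gene groups, the low-oxygen list held all 7 named genes that rose. Of its 54 genes, 27 had a probe set of their own. All 27 differences were above 0, where 11662 of all 22746 were, and 18 of 27 had both 1% arrays above all air arrays, beside 8.06% of all probe sets. The median log2 difference of the 27 was 1.23, against 0.0069 for all probe sets. It was 0.73 in the F pair, 1.84 with array D, and 0.88 with the letter as a block. The 20 that did not pass had a median of 1.06. The list was assembled with earlier results of these arrays known and is not independent evidence of its direction.

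Members of the list differed widely. AT4G27450 was bright in air, with 348, 381 and 433, and had 800 and 794 at 1% oxygen (2.05-fold, limma adjusted p above 0.9). AT3G10020, another bright member, overlapped between groups, with 599 and 674 at 1% oxygen and 650, 560 and 409 in air. AT4G39675 had 480 and 274 against 310, 235 and 17.0, with a log2 difference of 1.62, and its air array G was far below the other air arrays.

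Among fermentation enzymes 3 of 11 were named and none of these 3 passed. The other members, like the unnamed members of the lists below, had no probe set of their own in the annotation. Whether an unnamed probe set measures any of them, including the unnamed ones that passed, cannot be told here. PDC2, a pyruvate decarboxylase, had signals of 683 and 375 at 1% oxygen and of 200, 190 and 186 in air, a 2.59-fold difference (limma adjusted p above 0.9). The lactate dehydrogenase gene AT4G17260 had 288 and 203 against 139, 144 and 116, a 1.79-fold difference (limma adjusted p = 0.400). In both the groups did not overlap. ALDH2C4, an aldehyde dehydrogenase, had a log2 difference of -0.52, and its groups overlapped.

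Sucrose breakdown and glycolysis had 4 named genes of 21, none passed, and their median was 0.03. Of all probe sets 0.0484% passed. At that share no call would be expected among so few named genes, here, among the fermentation enzymes or in the lists below. The triosephosphate isomerase gene TPI had a log2 difference of 0.10, the glyceraldehyde-3-phosphate dehydrogenase gene GAPC2 of -0.01, AT5G08570 of 0.06 and AT5G42740 of -0.27. The groups overlapped for all but AT5G42740, which was lower on both 1% arrays. Of the oxygen sensing list, 1 of 16 genes was named, HRA1.

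The calcium and touch list had 3 named genes of 12. CML38 is given above, AT1G76640 had a log2 difference of 1.11 with overlapping groups and a value of -0.07 in the F pair, and CML37 had -0.55. Reactive oxygen and mitochondrial stress genes had 4 named of 17 and a median of -0.09. STZ, a zinc finger repressor induced by many stresses, had 0.39, AT3G11490 -0.27, and NDB2, an external NAD(P)H dehydrogenase of mitochondria, -0.17.

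Heat shock genes had 4 named of 17 and a median of 0.02, with AT5G51440 at -0.64, AT1G53540 at 0.19 and AT5G37670 at 0.05. Early stress regulators had 3 named of 24, WRKY53 at 0.29, WRKY22 at 0.16 and BZIP53 at 0.12. EIN3, the transcription factor of ethylene signalling, was the 1 named ethylene gene of 13 and had -0.11. EXO was the 1 named gene of 12 for energy starvation and had 0.53, with -0.18 in the F pair and 1.32 with array D. None of these genes passed the test, and none had groups without overlap.

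Cell wall growth genes had 4 named of 10 and a median of 0.21, all above 0 and none passing, with XTH18 at 0.70 and groups that did not overlap, XTH19 at 0.22 and EXPA18 at 0.21. Leaf photosynthesis genes had 3 named of 16, which served as markers of green tissue. Their summed signals were 322 and 286 at 1% oxygen and 369, 538 and 324 in air, and none was at 0. RCA, the Rubisco activase, had 63.5 and 97.0 against 108, 237 and 125 (log2 -0.86), PRK, the phosphoribulokinase of the Calvin cycle, had -0.21 and LHCB4.1 -0.16. Their part in the results was not tested.

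**Figure D4:**
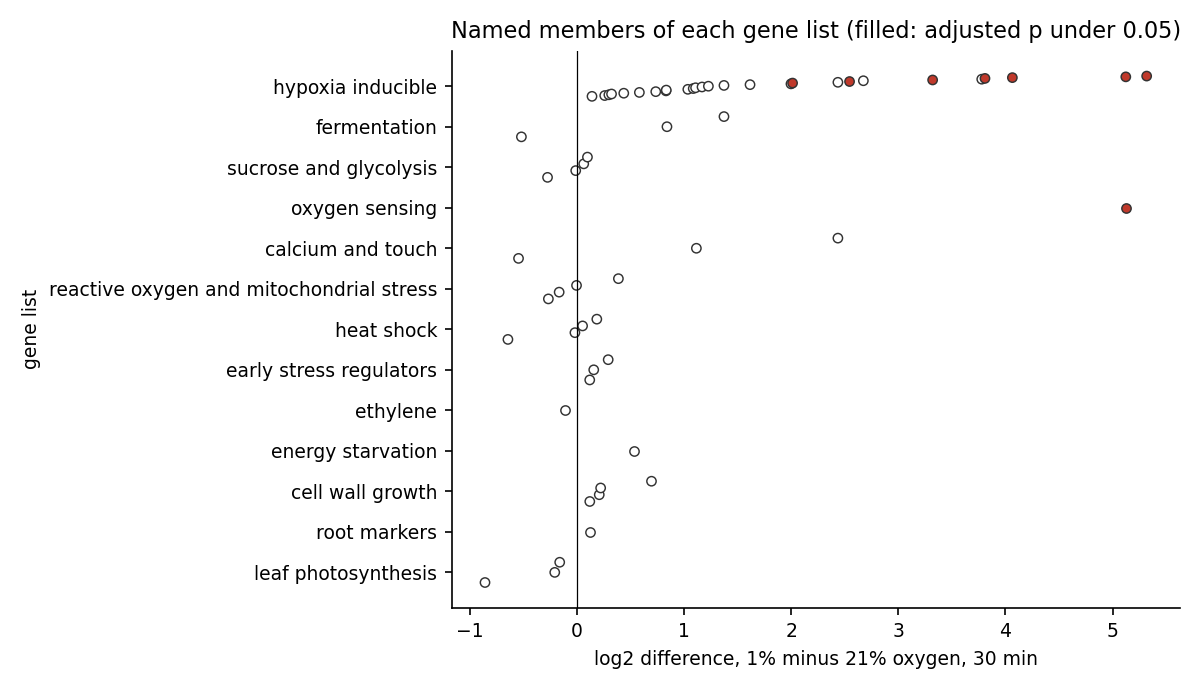
Log2 difference between 1% oxygen and air after 30 min for each named member of 13 gene lists, 1 point per gene, filled where the test passed. All 27 low-oxygen genes lie right of 0, from 0.14 to 5.32, and no member of the lists other than low-oxygen response and oxygen sensing is filled. With 0.0484% of all probe sets passing, none would be expected among the few named members of those other lists.

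Of the 14 protein-coding genes next to the 7 named ones in the RefSeq annotation, 8 had a probe set of their own. None of the 8 passed the test. Of all probe sets 0.0484% passed, and at that share no call would be expected among so few. Their log2 differences were between -0.60 and 0.15, with a median of -0.08.

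The study also held 2 arrays at 4% and 2 at 8% oxygen after 30 min. They were compared with the 1% arrays directly, because differences from air would share the air arrays. Between 1% and 4% oxygen no probe set passed (0% of those tested; limma, 111 with unadjusted p under 0.05), and between 1% and 8% none passed (0%; 421 with unadjusted p under 0.05). Both the 1% and the 4% arrays carry the letters D and F.

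The 11 probe sets had log2 differences of 1% minus 4% between -0.32 and 1.01, with SEs from 0.32 to 0.81. AT4G10270 was at 845 ± 275 (SD, n = 2) at 1% and 858 ± 226 (SD, n = 2) at 4%, and HRA1 at 835 ± 494 (SD, n = 2) and 698 ± 349 (SD, n = 2). For these the levels differed by less than the spread between arrays, although the intervals also allow differences of over 2-fold. AT3G23170 had the widest gap, 133 ± 8.73 (SD, n = 2) at 1% and 62.9 ± 2.34 (SD, n = 2) at 4%, with both 1% arrays above both 4% arrays, and this difference of 1.01 ± 0.39 (SE) did not pass.

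Against 8% oxygen the 11 differences lay between 0.08 and 2.18. The 8% arrays carry the letters C and G and share no letter with the 1% arrays. In this comparison oxygen level and letter cannot be told apart. AT3G23170 was 2.17 ± 0.39 (SE) higher at 1% (limma adjusted p = 0.169), and 247431_at 2.18 ± 0.35 (SE) higher (limma adjusted p = 0.0951). At 8% AT3G23170 had a signal of 25.1 ± 6.84 (SD, n = 2), beside 18.5 ± 7.71 (SD, n = 3) in air, and its groups overlapped there. The other 10 had both 8% arrays above all 3 air arrays. All 11 had both 4% arrays above all 3 air arrays. The 11 were chosen by their rise over these same air arrays, which favours such a separation. The share of all probe sets separated in this way at 4% or 8% was not computed.

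The median log2 difference of the 11 from the air arrays of the same duration was 3.51 at 1%, 3.18 at 4% and 2.60 at 8% after 30 min, 4.90, 4.31 and 2.58 after 2 h, and 1.96, 2.73 and 0.95 after 48 h. Levels at 1 duration share their air arrays, so these values are set side by side and not tested. The letters also differ between levels, except for 1% and 4% after 30 min. The 1% arrays A and F of 48 h lay far apart for several of the 11. HRA1 had 362 on A and 18.3 on F, and AT4G10270 had 686 and 104. AT3G23170 went the other way, with 34.0 and 50.4. After 48 h at 1% oxygen, 9 of the 11 still had both arrays above all air arrays of that duration, the exceptions being HRA1 and AT3G23170. The share of all probe sets separated in this way after 48 h was not computed.

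**Figure D5:**
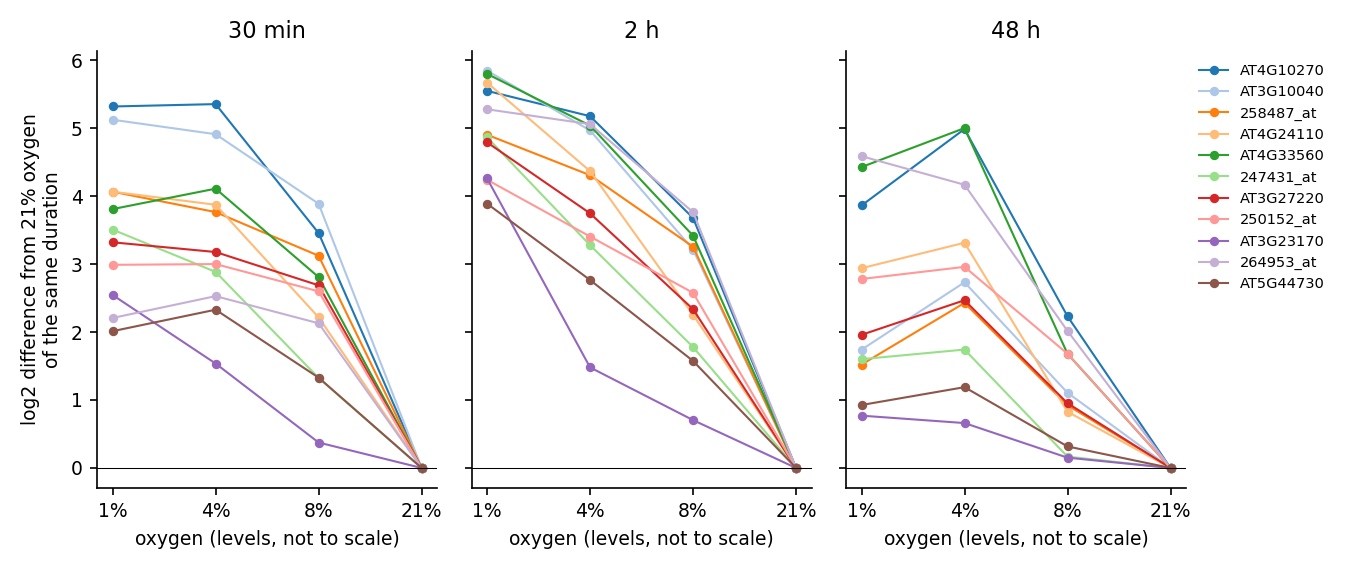
Mean log2(signal + 6) minus that of air arrays of the same duration, for the 11 probe sets at 1%, 4%, 8% and 21% oxygen (horizontal axis, levels not to scale) after 30 min, 2 h and 48 h, with air at 0 by construction. After 30 min AT3G23170 falls from 2.54 at 1% to 1.54 at 4%, and after 2 h the values at 1% reach 3.89 to 5.85. The 1% and 8% arrays of 30 min share no letter.

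A test of the response itself between durations (1% minus air after 2 h, less 1% minus air after 30 min) used separate air arrays for each duration. It found 3 probe sets with a larger response after 2 h (0.0132%) and 0% with a smaller one, with 548 at unadjusted p under 0.05. With the letter as a block there were 21, 14 larger and 7 smaller, which included the same 3. None of the 11 early probe sets passed it in the fit without the block, although all 11 differences were above 0.

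AT4G10270 had a difference between durations of 0.23 ± 1.04 (SE), and HRA1 a difference of 0.72 ± 0.99 (SE). The unnamed 264953_at had the largest difference, 3.07 ± 0.56 (SE, limma adjusted p = 0.0875), and rose from 618 ± 352 (SD, n = 2) at 1% after 30 min to 3484 ± 317 (SD, n = 2) after 2 h. AT5G44730 followed with 1.88 ± 0.42 (SE, limma adjusted p = 0.350). With the letter as a block these 2 probe sets passed, each with an adjusted p of 0.0230.

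Of the 3 that passed, AT4G17260, lactate dehydrogenase, had a log2 difference from air of 0.84 after 30 min and of 2.55 after 2 h (difference 1.71 ± 0.28 SE, limma adjusted p = 0.0458). At 30 min its signals of 288 and 203 at 1% oxygen were above air, and after 2 h they were 812 and 853, against 141, 135 and 134 in air. The gene AT4G30380, annotated as expansin-like B2 (EXLB2), was under the pseudocount on all 5 arrays at 30 min, with 1.11 at the highest. After 2 h it had 74.1 and 58.9 at 1% oxygen and at most 0.514 in air (difference 3.41 ± 0.24 SE, limma adjusted p = 1.67e-07). The unnamed 257152_at had 134 and 137 at 1% oxygen after 30 min, within the air range of 119 to 140, and 356 and 376 after 2 h against 123, 132 and 115 in air (difference 1.49 ± 0.24 SE, limma adjusted p = 0.0458). AT4G30380 passed with any 1 of the 10 arrays left out. Without air array C at 30 min the adjusted p was 0.108 for AT4G17260 and 0.0754 for 257152_at, and both also missed the threshold without any 1 of the other air arrays.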

How the data were processed

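RNA of each root sample was measured on 1 array. Per the labels and the submitters' processing notes, the authors deposited MAS5 signals (intensity on a linear scale), and the values show each array scaled to a mean of 100 after trimming 2% at each end. The version of MAS5, detection calls and a genome build are not given in the sources used here. Of 22810 probe sets, 64 controls were left out, and no filter on low signals was used. Gene names came from the platform annotation and, for 13436 of 13513 probe sets, from RefSeq (assembly TAIR10.1).

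The log2(signal + 6) values of all 28 arrays entered 1 model with a mean for each of 12 groups (limma 3.58.1, R 4.3.3), leaving 16 residual degrees of freedom. Empirical Bayes used an intensity trend, and two-sided p-values were adjusted by Benjamini-Hochberg over 22746 probe sets, with a threshold of 0.05. The pseudocount of 6 is near the 20th percentile of all values (6.17). The script was tested on simulated data. The number of arrays limits the precision.

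Members, lists and tests were chosen with earlier results of these data known. Named genes were all that passed (up to 15 per direction, with up to 4 unnamed probe sets), the 12 per direction with separated arrays and smallest p that did not pass, up to 3 members of each list, and up to 3 per direction of other comparisons. ARL, the plastid genes and some genes of the 36 were named after their values were seen.

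Alternatives were quantile normalization, median centring, pseudocounts of 1.5 and 24, a filter on the dimmest 40%, 1-gene probe sets only, no or a robust trend, fewer arrays, the letter as a block, a change of at least 2-fold, and each array left out. The letter was taken to pair arrays at 30 min from the correlations given above. At 2 h 5 of 8 same-letter pairs correlated above 0.1, beside 7 of 22 with different letters. The same-letter pairs at 2 h that did not all held the 1% array F. At 48 h 12 of 12 same-letter pairs and 1 of 25 others correlated above 0.1.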

Additional observations from a re-analysis of the deposited data

Results flagged for a closer look

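Each of 3 results had a response at 1% oxygen that differed between 30 min and 2 h by a test of the difference itself (limma interaction). The difference was 1.71 on the log2 scale for AT4G17260, lactate dehydrogenase, 3.41 for AT4G30380, annotated as expansin-like B2, and 1.49 for the unnamed probe set 257152_at. All 3 also passed with the letter as a block, with adjusted p of 0.000562, 2.17e-05 and 0.0464. The 1% array F at 2 h did not share its deviation with other F arrays of that duration (correlations of -0.0773, -0.1418 and -0.0125). The block may therefore not describe that array. With 1 of 10 arrays left out, AT4G30380 passed each time, AT4G17260 passed 1 time (without the 1% array D at 30 min) and 257152_at never, with adjusted p up to 0.491 and 0.249 (limma). Neither of the latter passed with a robust trend or a pseudocount of 1.5. At 4% oxygen AT4G30380 had signals of 12.1 and 5.33 after 2 h, and at 8% of 0.673 and 0.772. Groups of 2 or 3 arrays were too small for a search for outlying arrays.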

How the results depend on the processing

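The direction of all 11 rises held under every alternative run, and 247431_at passed in 17 of 18 and AT3G27220 in 17 of 19. The count of 11 higher probe sets became 7 with 1-gene probe sets only, 5 with the arrays of the groups compared only (4 of them among the 11), 2 with the replicate letter as a block, 0 with a block within each duration, 4 for a change of at least 2-fold, and 2 to 10 with 1 array left out, lowest without the 1% array D. No probe set was lower under any of them. For 1% against 4% the count of 0 became 0 to 1 with 1 array left out. For 1% against 8% it became 2 with quantile normalization, 3 with a pseudocount of 24, 1 without the dimmest 40%, 2 with a random block and 0 to 2 with 1 array left out. The count of 3 between durations became 1 with a pseudocount of 1.5, 6 with 24, 1 with a robust trend, 6 with the durations compared only, 5 with the groups compared only, 21 with the letter as a block (7 lower), 37 as a random block (6 lower), 15 within each duration (5 lower), 1 for a change of at least 2-fold and 1 to 4 with 1 array left out. With the letter as a fixed block, probe sets at unadjusted p under 0.05 numbered 862, 599 and 1617 in place of 393, 111 and 548 for 1% against air, 1% against 4% and between durations. Where no array or construction accounts for a shift, the cause was not tested.

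List members near 0 turned sign, none of them past the threshold. With 1 array left out, the log2 difference ranged from -0.052 to 0.82 for STZ, -0.038 to 0.62 for WRKY53, -0.060 to 0.30 for BZIP53, -0.33 to 1.39 for EXO, -0.22 to 0.66 for XTH19, -0.044 to 0.24 for TPI, -0.40 to 0.18 for EIN3, -0.094 to 0.51 for EXPA18, -0.20 to 0.44 for EXPA7, -0.40 to 0.080 for LHCB4.1, -0.0014 to 0.19 for AT5G08570, -0.32 to 0.092 for NDB2, -0.051 to 0.13 for AT5G37670 and -0.12 to 0.58 for AT1G53540. With the letter as a block NDB2 was at 0.16 and EXO at -0.087, and as a random block NDB2 was at 0.0069. With the block within each duration STZ was at -0.12, NDB2 at 0.089, EXO at -0.065, XTH19 at -0.068 and PRK at 0.041. Detection calls were not used here, so low signals were not set against background.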

Other observations

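Plastid transcripts varied widely between the arrays at 30 min. Letters C and G were present only at 8% oxygen and in air, and letter D only at 1% and 4%. Letter and oxygen level are thus partly confounded, and their shares in this variation were not tested. The 69 named genes of the plastid genome had a median signal of 177 on air array C and 151 on the 8% array C, the highest of the 9 arrays at 30 min. The arrays of letter D followed with 66.6 at 1% and 55.6 at 4%, the arrays of letter F had 33.8 at 1%, 34.1 at 4% and 16.3 in air, and those of letter G had 25.6 at 8% and 22.1 in air.

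For psaB, a core subunit of photosystem I, the signals were 1691 and 227 at 1% oxygen and 2048, 49.5 and 134 in air. For rpl16, a plastid ribosomal protein, they were 503 and 172 against 311, 13.6 and 44.5. None of the 69 passed the test and none had an unadjusted p under 0.05, with a median log2 difference of -0.05 and 31 of 69 above 0. Without air array C, an alternative chosen after seeing the data, the median was 0.62, 53 of 69 were above 0, 7 had an unadjusted p under 0.05 (limma) and none passed.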
